A study of Rattus norvegicus with 30 samples.

Results

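The receptors for serotonin, adrenaline and noradrenaline, and acetylcholine were represented on the array by 40 genes of the 13337 genes that carried a symbol. They were chosen by symbol alone, as all genes named as serotonin receptors (Htr), adrenergic receptors (Adra and Adrb), muscarinic acetylcholine receptors (Chrm) or nicotinic acetylcholine receptor subunits (Chrn). The set held 14 serotonin, 6 adrenergic, 5 muscarinic and 15 nicotinic genes, each with 1 probe. Of the 40 genes, 23 stood above the median of the array on 5 or more of the 30 arrays and were carried into the comparisons, namely 6 serotonin, 4 adrenergic, 3 muscarinic and 10 nicotinic genes.

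The study measured amygdala RNA of adult Sprague Dawley rats on Illumina BeadChips, 1 rat per array. Rats had either been exposed to predator scent, a stressor without physical contact, and then sorted by their behaviour, or had been tested without exposure. The 6 groups of 5 rats were male extreme responders, male minimal responders, unexposed male controls, female extreme responders, female minimal responders and unexposed female controls. The labels name no transgene, drug or time after exposure, and the amygdala was dissected by anatomical landmarks. Male and female rats also carry identity numbers with different letters (R and F), so sex and numbering series cannot be told apart. The series' design text speaks of female rats although it counts 5 males in each condition, so male and female are used here as the sample labels give them, and none of the 11 Y-linked and Xist symbols looked up was present to check the sex labels. All 6 listed neuronal and amygdala genes (Snap25, Rbfox3, Syt1, Nr2f2, Etv1 and Bdnf) passed the same intensity filter, and so did 10 markers of the thalamus and 7 of the choroid plexus.

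These receptors carry the signals of the long-range modulatory systems that reach the amygdala from the raphe nuclei, the locus coeruleus and the basal forebrain. All are G protein-coupled receptors except the serotonin receptor Htr3a and its partners and the nicotinic subunits, which form ion channels opened by the transmitter. Their mix differs strongly between brain regions, and the amygdala lies close to the striatum, the thalamus, the hippocampus and the cortex.

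Most of the 40 genes were dim on this array. The 17 that were not carried further had values between 6.46 and 7.31 on the normalized log2 intensity scale, where the median of every array was 7.02 and the quartiles were 6.79 and 8.04. They were Htr1a, Htr1b, Htr1f, Htr2b, Htr2c, Htr3b, Htr4 and Htr5a among the serotonin receptors, Adra2b and Adrb1, Chrm2 and Chrm5, and the nicotinic Chrna1, Chrna2, Chrna10, Chrnb3 and Chrng. The threshold itself separated close neighbours: Adrb1 and Chrng exceeded the median on 4 arrays and were left out, while Chrnb4 exceeded it on 6 and Chrna9 and Chrne on 8. A stricter intensity filter, above 7.2 on 15 arrays, kept 9 of the genes. Chrm1, Htr6, Chrnd, Chrnb1 and Chrne were among those it removed. A dim probe on such an array has a compressed log2 scale, so that the differences given for most members may be smaller than those in RNA, and a low reading does not show that the transcript was absent.

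The rest of the set fell into bright or variable members and flat ones. Chrm3 lay between 8.75 and 11.54 over the 30 arrays, Adra1b between 7.59 and 11.49, Adra2c between 7.19 and 9.17, Chrm4 between 7.17 and 8.98 and Chrna4 between 6.94 and 8.91. Adra1b, a Gq-coupled adrenergic receptor, had the widest range of the 23 at 3.90 log2 units. The flat members included Adra1a, which read 7.05 to 7.39, Chrna7, the subunit of the homomeric alpha7 channel, which read 6.84 to 7.18, and Chrna9, best known from cochlear hair cells, which read 6.78 to 7.14. For 16 of the 23 genes the spread within groups was larger in the female than in the male rats, and the median ratio of the female to the male SD was 1.66 for the members and 1.16 over all 13308 probes tested.

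Exposure and behavioural response left no member past the threshold in either sex. Each comparison was read from 1 limma fit of the 6 group means, with p adjusted by Benjamini and Hochberg over 13308 probes and called under 0.05. The fit held 1 spread per gene for both sexes. Where females spread more, its SE is wide for male comparisons and narrow for female ones. In males, 0 of 23 members were called in exposed minus control (0% of all probes), 0 in extreme minus control (0.797% of probes), 0 in minimal minus control (0%) and 0 in extreme minus minimal (0%). In females, 0 members were called in exposed minus control (6.87% of probes), 0 in extreme minus control (6.53%), 0 in minimal minus control (1.98%) and 0 in extreme minus minimal (0.128%). Over both sexes together, 0 were called in exposed minus control (0.759%). Without adjustment, between 1 and 2 members had p under 0.05 in each of these 9 comparisons, which is 4.35% or 8.70% of the members, and between 5.15% and 20.7% of all probes did so. The median difference of the members lay between -0.051 and 0.018, and that of all probes between -0.0091 and 0.0019. In these bulk samples, fewer cells of a type and less RNA per cell cannot be told apart.

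**Figure D1:**
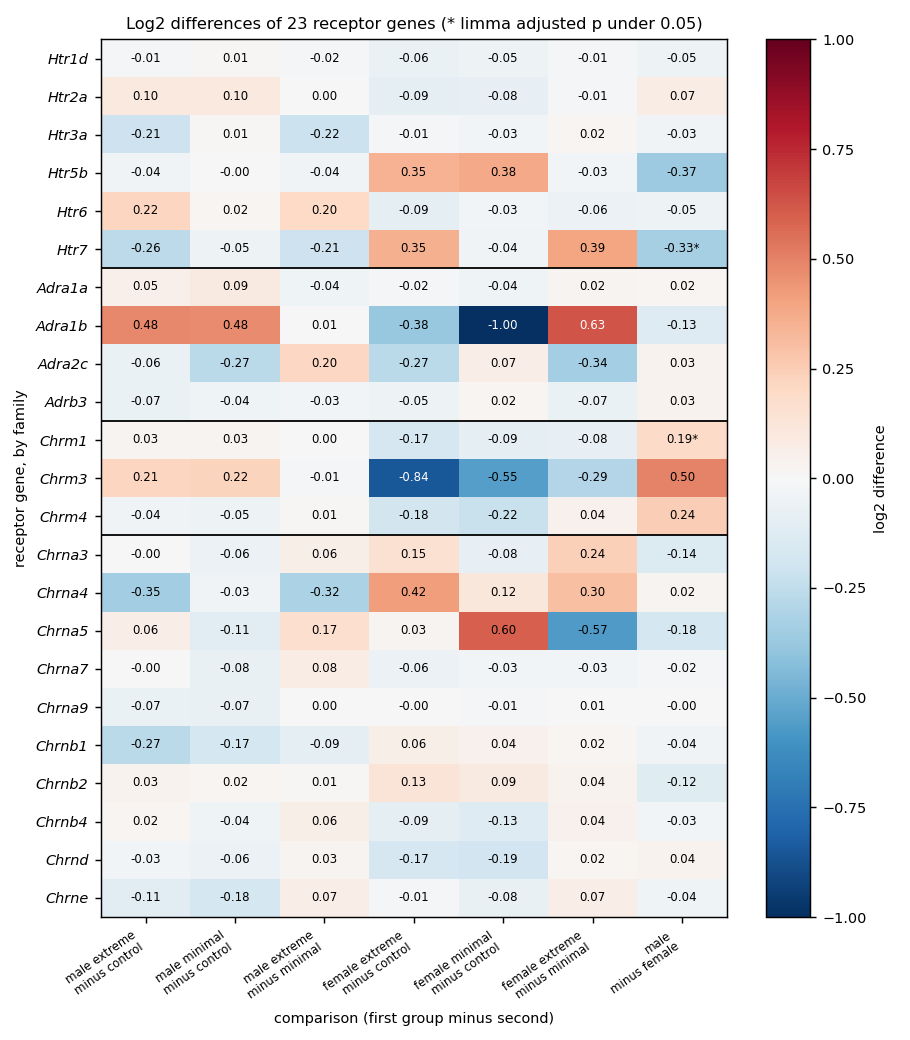
Heat map of log2 differences of the 23 receptor genes (rows, by family: serotonin, adrenergic, muscarinic, nicotinic) in 7 comparisons (columns, first group minus second), with the value printed in each cell and a star where the limma adjusted p was under 0.05. The only stars are Htr7 at -0.33 and Chrm1 at 0.19 in male minus female, while larger differences such as those of Adra1b and Chrm3 in females carry none.

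Among the serotonin receptors, Htr6, a Gs-coupled receptor, had the smallest p within a sex. It read 7.13, 7.29, 7.11, 7.05 and 7.12 in male extreme responders, 6.81, 6.96, 6.93, 7.0 and 7.0 in male minimal responders, and 6.94, 6.84, 7.11, 6.70 and 7.0 in male controls. All 5 extreme responders lay above all 5 minimal responders, and their lowest value lay below the highest control. The difference was 0.22 ± 0.08 (SE) in extreme minus control (limma, adjusted p = 0.178) and 0.20 ± 0.08 in extreme minus minimal (adjusted p = 0.346), both with n = 5 rats a group. In females it averaged 7.0 ± 0.14 in extreme responders, 7.06 ± 0.13 in minimal responders and 7.09 ± 0.08 in controls (SD, n = 5 each). The difference between the sexes in extreme minus minimal was 0.26 ± 0.11 in male minus female (adjusted p = 0.315).

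Htr7, a Gs-coupled serotonin receptor abundant in the thalamus, differed between the sexes. It read 7.45, 7.17, 7.36, 7.35 and 7.77 in male extreme responders, 7.27, 7.81, 7.74, 7.73 and 7.57 in male minimal responders, and 7.74, 7.51, 7.81, 7.74 and 7.60 in male controls. It read 7.56, 8.53, 8.69, 7.75 and 8.25 in female extreme responders, 7.79, 7.78, 7.77, 7.54 and 7.93 in female minimal responders, and 7.67, 7.66, 7.21, 8.18 and 8.27 in female controls. No male exceeded 7.81, whereas 3 female extreme responders and 2 female controls read 8.18 or more, and the sexes overlapped in the rest. The mean was 7.57 in males and 7.91 in females, a difference of -0.33 ± 0.11 (limma, adjusted p = 0.0273, 15 rats a sex). In female extreme minus minimal it differed by 0.39 ± 0.18 (adjusted p = 0.515).

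**Figure D2:**
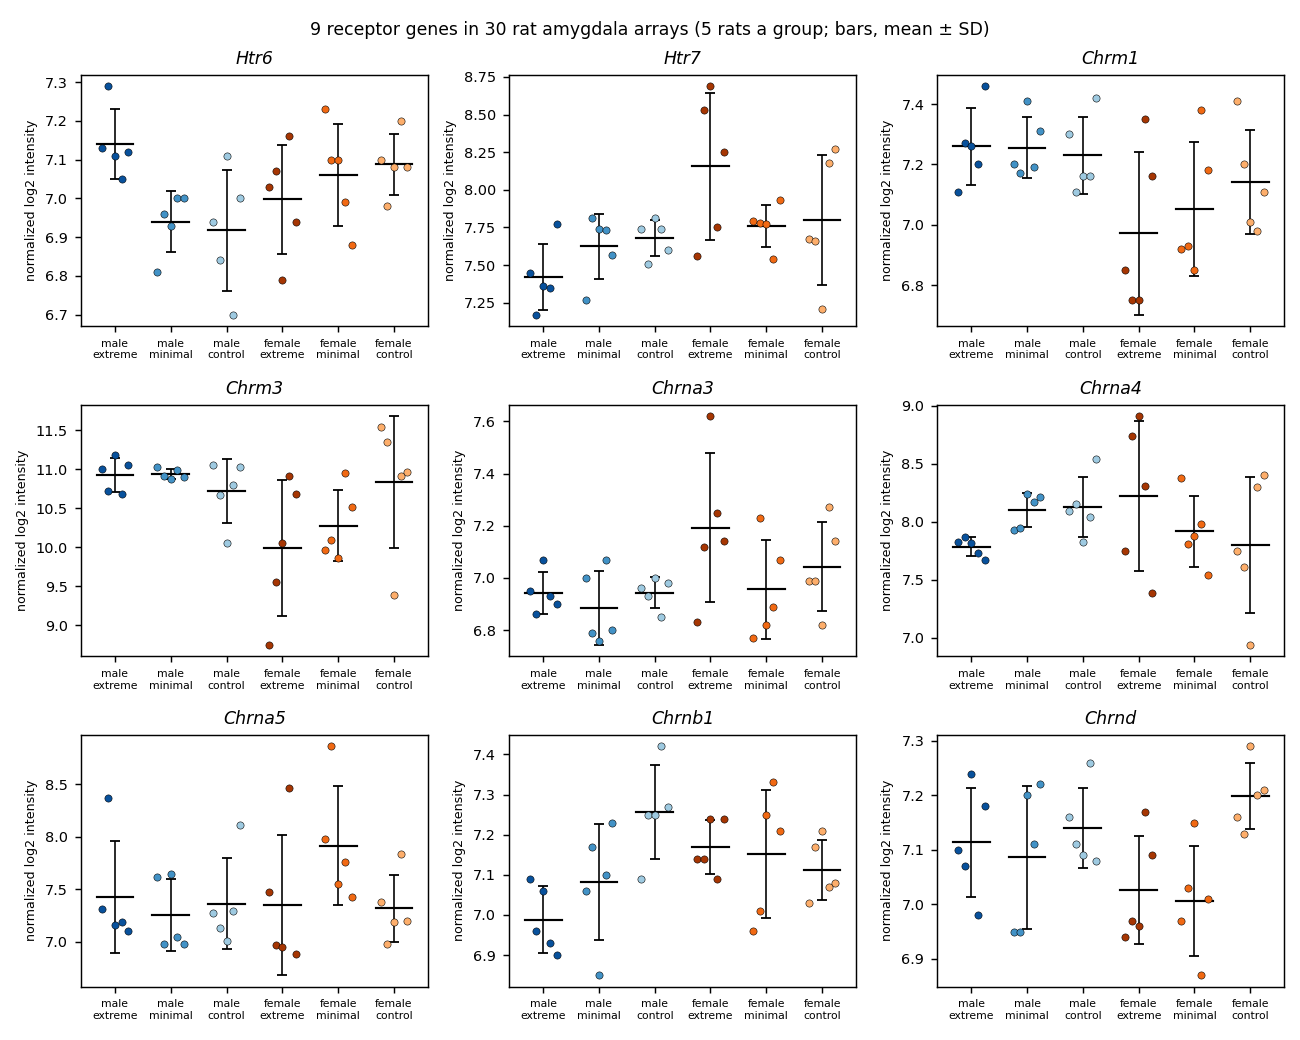
Normalized log2 intensity (vertical axes) of 9 receptor genes in the 6 groups (horizontal axes), 1 point per rat, with horizontal bars for the mean and error bars for the SD of 5 rats. Htr7 and Chrna4 are highest in female extreme responders 2 and 3, Chrm3 spreads from 8.75 to 11.54 in females, and Chrna5 is high in single rats of several groups.

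The remaining serotonin receptors passed the test in no comparison. Htr2a, the Gq-coupled receptor of cortical pyramidal cells, read 6.97 to 7.44 over all arrays. Htr3a, the ion channel subunit of inhibitory interneurons, averaged 7.43 ± 0.27 in male extreme responders, 7.64 ± 0.20 in male minimal responders and 7.64 ± 0.23 in male controls. In females its group means were 7.61 ± 0.45, 7.59 ± 0.23 and 7.62 ± 0.45 in the same order. Htr1d, a Gi-coupled receptor of nerve endings, read 6.86 to 7.38.

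Htr5b, a Gi-coupled receptor, was singled out after its values were seen, because 2 rats stood apart. It read 6.92, 7.31, 6.88, 7.24 and 8.52 in female extreme responders, 7.52, 6.96, 7.01, 6.95 and 8.57 in female minimal responders, and 6.84, 7.14, 7.04, 6.97 and 7.13 in female controls. All 15 males read between 6.70 and 7.19. The 2 high arrays were replicate 5 of the extreme and of the minimal female responders. Of 4 further genes known from the hippocampus, which includes the dentate gyrus, also picked after seeing values, 3 were highest on the same 2 arrays. C1ql2, a secreted protein of dentate granule cells, read 9.57 in female extreme responder 5 and 9.92 in female minimal responder 5, against at most 8.54 on the other 28 arrays. Klk8, a serine protease, read 8.55 and 8.98 on these arrays, against at most 7.51. Fat4, an atypical cadherin, read 9.14 and 9.62, against at most 8.08. Prox1, a granule cell transcription factor, read 7.13 and 7.27, against at most 7.28, and did not separate them.

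**Figure D3:**
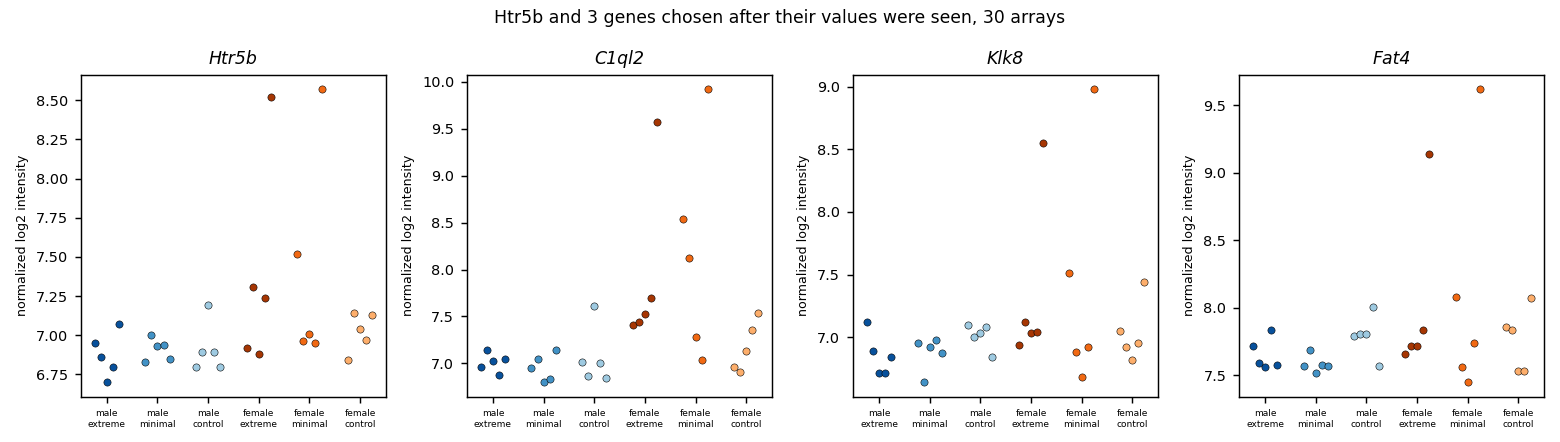
Normalized log2 intensity (vertical axes) of Htr5b, C1ql2, Klk8 and Fat4 in the 6 groups (horizontal axes), 1 point per rat and no mean drawn. In each panel the same 2 arrays, replicate 5 of the female extreme and of the female minimal responders, lie highest. Htr5b reads 8.52 and 8.57 there and at most 7.52 elsewhere. The genes were picked after their values were seen, and Prox1, which did not separate these arrays, is not drawn.

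Among the adrenergic receptors no comparison called a member. Adra1b was described after its values were seen, since its group differences were the largest of the set. It read 9.38, 9.22, 9.93, 10.03 and 10.31 in male extreme responders, 9.56, 9.78, 9.72, 9.92 and 9.86 in male minimal responders, and 9.42, 9.50, 8.17, 9.57 and 9.79 in male controls. It read 9.62, 11.49, 11.16, 8.60 and 8.22 in female extreme responders, 10.49, 8.84, 10.18, 8.86 and 7.59 in female minimal responders, and 10.37, 10.50, 7.85, 11.17 and 11.10 in female controls. The female groups overlapped over nearly their whole range, and the difference was -1.0 ± 0.59 in female minimal minus control (limma, adjusted p = 0.426) and 0.63 ± 0.59 in female extreme minus minimal (adjusted p = 0.79). Adra2c, a Gi-coupled receptor that limits transmitter release, averaged 8.19 ± 0.23 in male extreme responders, 7.98 ± 0.12 in male minimal responders and 8.25 ± 0.34 in male controls. In females it averaged 7.90 ± 0.63, 8.24 ± 0.18 and 8.17 ± 0.57 in the same order. Adrb3, a Gs-coupled receptor best known from adipose tissue, read 6.90 to 7.37.

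The muscarinic receptors held the second sex difference. Chrm1, the Gq-coupled receptor of forebrain excitatory neurons, read 7.11, 7.27, 7.26, 7.20 and 7.46 in male extreme responders, 7.20, 7.17, 7.41, 7.19 and 7.31 in male minimal responders, and 7.30, 7.11, 7.16, 7.16 and 7.42 in male controls. It read 6.85, 6.75, 6.75, 7.35 and 7.16 in female extreme responders, 6.92, 6.93, 6.85, 7.38 and 7.18 in female minimal responders, and 7.41, 7.20, 7.01, 6.98 and 7.11 in female controls. Every male read 7.11 or more, and 8 of the 15 females read less than that. The mean was 7.25 in males and 7.05 in females, a difference of 0.19 ± 0.06 (limma, adjusted p = 0.0338, 15 rats a sex).

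These 2 genes, Htr7 lower and Chrm1 higher in males, were the only members called in male minus female, against 19.2% of all probes. Without adjustment, 6 of 23 members (26.1%) had p under 0.05, and 32.2% of all probes did. Markers of tissue types also differed between the sexes: 9 of 10 measured thalamic markers were lower in males, as were 9 of 11 oligodendrocyte and 4 of 7 choroid plexus markers, while 4 of 7 pallial excitatory markers were higher. The thalamic marker mean, centred over the arrays, lay between -0.75 and -0.32 in the 15 males and between -0.59 and 2.22 in the 15 females. With the thalamic, striatal and pallial marker means as covariates, 0 of 23 members were called (limma) and the calls over all probes dropped to 95 (0.714%). The male minus female difference was then -0.057 ± 0.060 for Chrm1 (adjusted p = 0.755), opposite in sign to the value without covariates, and -0.17 ± 0.09 for Htr7 (adjusted p = 0.377). The covariate fit holds 1 slope per marker mean for both sexes, and the thalamic mean overlaps little between them. It therefore cannot tell a sex difference from one of regional tissue. Chrm1 missed the threshold (adjusted p between 0.0502 and 0.0606) without any 1 of 12 arrays, which were female extreme 1, 2 and 3, female minimal 1, 2 and 3, female control 3 and 4, male extreme 5, male minimal 3 and male control 1 and 5. Htr7 missed it when female control 4, female control 5 or female extreme 3 was left out (adjusted p between 0.0505 and 0.0524).

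Chrm3, a Gq-coupled muscarinic receptor, had the smallest p of the muscarinic genes within a sex. It read 8.75, 9.56, 10.05, 10.91 and 10.68 in female extreme responders, 9.97, 10.10, 9.86, 10.95 and 10.52 in female minimal responders, and 11.54, 11.35, 9.39, 10.92 and 10.97 in female controls. Controls other than replicate 3 lay at 10.92 or above, and of the 10 exposed females only minimal responder 4 exceeded that, at 10.95. The difference was -0.84 ± 0.33 in extreme minus control (limma, adjusted p = 0.133) and -0.70 ± 0.29 in exposed minus control (adjusted p = 0.158). Without female control 3 these were -1.21 ± 0.29 (adjusted p = 0.014) and -1.06 ± 0.26 (adjusted p = 0.0143), and without female extreme 4 the first was -1.07 ± 0.34 (adjusted p = 0.0483). Female control 3 had the highest striatal marker mean of the 30 arrays, 2.56, and the pallial marker mean of the female groups ran from -1.36 to 0.22 in extreme responders, from -0.87 to 0.24 in minimal responders and from -0.81 to 0.48 in controls. With the 3 regional means as covariates the extreme minus control difference of Chrm3 was -0.29 ± 0.18 (adjusted p = 0.395).

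In males Chrm3 averaged 10.93 ± 0.22 in extreme responders, 10.94 ± 0.07 in minimal responders and 10.72 ± 0.41 in controls (SD, n = 5 each). The effect of exposure differed between the sexes for 0 of 23 members (4.49% of probes), with 0.92 ± 0.41 in male minus female for Chrm3 (limma, adjusted p = 0.2). Without female control 3 this was 1.28 ± 0.35 (adjusted p = 0.0336). The extreme minus minimal difference differed between the sexes for 0 of 23 members too (0.0526% of probes). In each of these 2 tests, 2 members had an unadjusted p under 0.05. Chrm4, the Gi-coupled receptor of striatal projection neurons, averaged 8.22 ± 0.27 in male extreme responders, 8.21 ± 0.14 in male minimal responders and 8.26 ± 0.17 in male controls. In females it averaged 7.94 ± 0.64, 7.90 ± 0.30 and 8.12 ± 0.50 in the same order.

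The nicotinic subunits gave the smallest p of the set within females and within males, both from genes of the muscle-type receptor. Chrnd, the delta subunit, read 6.94, 6.97, 6.96, 7.17 and 7.09 in female extreme responders, 6.97, 7.03, 7.15, 6.87 and 7.01 in female minimal responders, and 7.16, 7.13, 7.29, 7.20 and 7.21 in female controls. Of the 10 exposed rats, 8 lay below the lowest control. The difference in female exposed minus control was -0.18 ± 0.06 (limma, adjusted p = 0.0524), and 95% limits were -0.30 and -0.064. It passed the threshold when any 1 of 6 arrays was left out (adjusted p between 0.0297 and 0.0496: female minimal 2 and 3, female extreme 4, male minimal 1, male extreme 3 and 4). It also passed with robust variances (limma, adjusted p = 0.0474) and after a normexp correction (0.0445). With the replicate number as a block it passed too (0.0498), although the labels name separate rats. In 32 of 41 alternative runs the difference stayed uncalled. With the 3 regional means as covariates it was -0.18 ± 0.07 (adjusted p = 0.116). In males Chrnd averaged 7.12 ± 0.10 in extreme responders, 7.08 ± 0.13 in minimal responders and 7.14 ± 0.07 in controls.

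Chrnb1, the beta subunit of the same receptor, read 7.09, 6.96, 7.06, 6.93 and 6.90 in male extreme responders, 7.06, 7.17, 6.85, 7.10 and 7.23 in male minimal responders, and 7.09, 7.25, 7.25, 7.42 and 7.27 in male controls. The highest extreme responder and the lowest control both round to 7.09, and before rounding all 5 extreme responders lay below all 5 controls. The difference was -0.27 ± 0.07 in extreme minus control (limma, adjusted p = 0.0794) and -0.22 ± 0.06 in exposed minus control (adjusted p = 0.212). With array weights the extreme minus control difference was -0.25 (adjusted p = 0.0475), and with the regional means as covariates it was -0.27 ± 0.08 (adjusted p = 0.0657). In females Chrnb1 averaged 7.17 ± 0.07 in extreme responders, 7.15 ± 0.16 in minimal responders and 7.11 ± 0.07 in controls. The difference of the exposure effect in male minus female was -0.27 ± 0.09 (adjusted p = 0.0876).

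Chrna3, Chrna4 and Chrna5 completed the 8 members with the smallest p within a sex. Their smallest unadjusted p was 0.0343, 0.0896 and 0.0514 (limma). Chrna3, a subunit of ganglionic and habenular receptors, read 6.83, 7.12, 7.62, 7.25 and 7.14 in female extreme responders, 6.77, 7.23, 6.82, 6.89 and 7.07 in female minimal responders, and 6.99, 6.99, 6.82, 7.27 and 7.14 in female controls. Its highest value came from female extreme responder 3, and the 3 groups overlapped. Extreme minus minimal was 0.24 ± 0.11 (limma, adjusted p = 0.498).

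Chrna4, which with Chrnb2 forms the high-affinity nicotinic receptor of the brain, read 7.75, 8.74, 8.91, 8.31 and 7.39 in female extreme responders, 8.38, 7.81, 7.88, 7.98 and 7.54 in female minimal responders, and 7.75, 7.61, 6.94, 8.30 and 8.40 in female controls. The difference in female extreme minus control was 0.42 ± 0.24 (limma, adjusted p = 0.331). In males it read 7.83, 7.87, 7.82, 7.73 and 7.67 in extreme responders, 7.93, 7.95, 8.24, 8.17 and 8.21 in minimal responders, and 8.09, 8.15, 7.83, 8.04 and 8.54 in controls. All male extreme responders lay below all male minimal responders, and the difference was -0.32 ± 0.24 (limma, adjusted p = 0.721). This SE rests on the spread of both sexes, and the SD of Chrna4 within groups was 0.53 in females and 0.18 in males. Its partner Chrnb2 read 6.87 to 7.47.

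Chrna5, an accessory subunit, was high in single rats. It read 7.47, 6.97, 6.95, 8.46 and 6.88 in female extreme responders, 7.98, 8.86, 7.55, 7.76 and 7.42 in female minimal responders, and 7.38, 6.98, 7.19, 7.83 and 7.20 in female controls. Female minimal minus control was 0.60 ± 0.29 (limma, adjusted p = 0.319). In males only extreme responder 2, at 8.37, and control 5, at 8.11, exceeded 7.64. Chrna5, Chrna3 and Chrnb4 lie close together on the rat genome in the RefSeq gene table, and on the 4 arrays where Chrna5 exceeded 8 Chrna3 read 7.25, 7.23, 6.86 and 6.98 and Chrnb4 read 6.90, 6.86, 6.88 and 6.90. Both neighbours stayed within the range of the other arrays where Chrna5 was high. Of the other nicotinic members, Chrne lay between 6.66 and 7.39 and Chrnb4 between 6.61 and 7.22.

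How the members vary with the marker means of regional tissue was examined next, with slopes added after the data had been seen. For each member a limma slope was fitted on a marker mean within the 6 groups, over all 30 arrays and all 13308 probes. The marker lists were thalamic (10 measured genes, among them Slc17a6 and Ntng1), striatal and central amygdala, and pallial excitatory (7 measured genes, among them Slc17a7 and Camk2a). A slope is the log2 change of a gene per 1 log2 unit of the marker mean. On the thalamic mean 6 of 23 members were called, 3 rising and 3 falling (14.8% of probes). On the striatal mean 5 were called, 3 rising and 2 falling (5.29% of probes). On the pallial mean 3 were called, all rising (15% of probes).

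**Figure D4:**
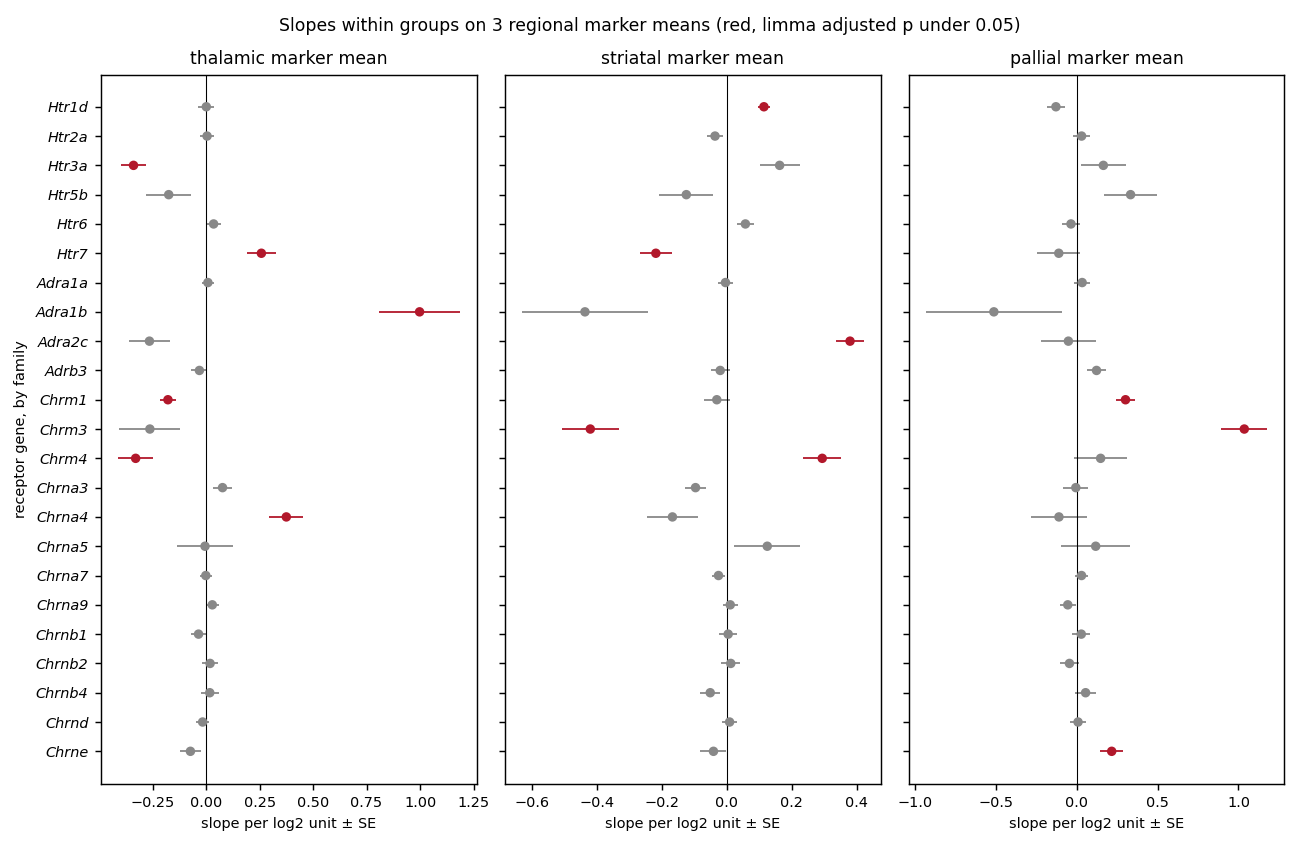
Slopes with their SE (horizontal axes, log2 change per log2 unit of the marker mean) of the 23 receptor genes (vertical axis, by family) on the thalamic, striatal and pallial marker means, within groups over 30 arrays, in red where the limma adjusted p was under 0.05. Adra1b on the thalamic mean at 1.00 and Chrm3 on the pallial mean at 1.04 are the steepest of the called slopes, and most nicotinic subunits lie near 0.

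The thalamic mean went with Adra1b at 1.00 ± 0.19 (limma, adjusted p = 0.000418), Chrna4 at 0.37 ± 0.08 (0.00148) and Htr7 at 0.26 ± 0.07 (0.00778). The falling members were Htr3a at -0.34 ± 0.06 (adjusted p = 0.000157), Chrm4 at -0.33 ± 0.08 (0.00533) and Chrm1 at -0.18 ± 0.04 (0.00109). On the 2 arrays with the highest thalamic mean, female extreme responders 2 and 3 at 2.22 and 1.80, Adra1b read 11.49 and 11.16, Chrna4 8.74 and 8.91 and Htr7 8.53 and 8.69. The same 6 members were called among the 15 females alone (9.82% of probes). None was called among the 15 males, whose thalamic means spanned only -0.75 to -0.32 and where 1 of the 13308 probes was called. In males 5 of the 6 slopes had the opposite sign, namely Adra1b at -2.78 ± 0.86 (limma, adjusted p = 0.263), Chrna4 at -0.46 ± 0.45, Htr7 at -0.48 ± 0.48, Chrm4 at 0.78 ± 0.47 and Htr3a at 0.23 ± 0.58, and the difference of slopes between the sexes was not tested. Male control 3 held both the highest thalamic mean of the males, -0.32, and their highest striatal mean, 1.25. On it Adra1b read 8.17, Chrna4 7.83, Htr7 7.81, Chrm4 8.46 and Htr3a 8.03, and its part in the male slopes was not tested. Without female extreme responders 2 and 3, 3 of the 6 members were called over both sexes (9.12% of probes). These were Adra1b at 0.82, Chrm1 at -0.17 and Htr3a at -0.33. The other slopes were then 0.30 for Chrna4 (limma, adjusted p = 0.054), 0.19 for Htr7 (0.166) and -0.21 for Chrm4 (0.197).

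The striatal mean went with Adra2c at 0.38 ± 0.04 (limma, adjusted p = 5.65e-07), Chrm4 at 0.29 ± 0.06 (0.00226) and Htr1d at 0.11 ± 0.02 (0.000334). The falling members were Chrm3 at -0.42 ± 0.09 (adjusted p = 0.00332) and Htr7 at -0.22 ± 0.05 (0.00741). Adra2c was called in both sexes taken alone, at 0.36 ± 0.06 in males (limma, adjusted p = 0.00364) and 0.38 ± 0.06 in females (adjusted p = 0.00367). It was also called without the 2 arrays farthest in the mean, female control 3 and female extreme 1 (0.36, adjusted p = 0.00557). That fit left out no male array. Adra2c read 8.56 in male extreme responder 2, 8.82 in male control 3 and 9.17 in female control 3, the highest array of each of these groups. Each of them held the highest striatal mean of its group, at 1.09, 1.25 and 2.56. The other males lay between -0.55 and -0.28 on that mean. The other called slopes did not all stand without female control 3, where Adra2c and Htr1d alone were called. Among males Adra1b fell with the striatal mean at -0.65 ± 0.11 (limma, adjusted p = 0.00251). Its lowest male value, 8.17, came from male control 3, the male array with the highest striatal mean.

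The pallial mean went with Chrm3 at 1.04 ± 0.14 (limma, adjusted p = 1.51e-05), Chrm1 at 0.30 ± 0.06 (0.000536) and Chrne, a muscle-type subunit, at 0.22 ± 0.07 (0.0439). Chrm3 was called in males alone at 1.07 ± 0.22 (limma, adjusted p = 0.039) and in females alone at 1.03 ± 0.19 (adjusted p = 0.00613). Among males, control 3 lay apart at a pallial mean of -0.33 and had the lowest Chrm3, 10.05. The other males lay between 0.24 and 0.52 on that mean, and the male slope without control 3 is not given here. Without the 2 farthest arrays, female extreme responders 2 and 3, the slope of Chrm3 was 1.39 (limma, adjusted p = 2.56e-08). In that fit, which left out no male array, 15.3% of probes were called. In that fit 2 members rose, Chrm3 and Chrm1 at 0.29 (adjusted p = 0.00587), and 2 fell, Adra2c at -0.50 (adjusted p = 0.0143) and Htr1d at -0.22 (adjusted p = 0.0132), while Chrne was at 0.18 (adjusted p = 0.211). Chrm1 was called in females and not in males (0.035 ± 0.182, adjusted p = 0.99), and that difference was not tested. Chrne missed the threshold without any 1 of 13 arrays, which were all 5 female extreme and all 5 female minimal responders, female control 3, male extreme 2 and male minimal 2. Without female control 3, 5 members were called on the pallial mean, Chrm1, Chrm3, Chrm4 and Htr3a rising and Adra1b falling.

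**Figure D5:**
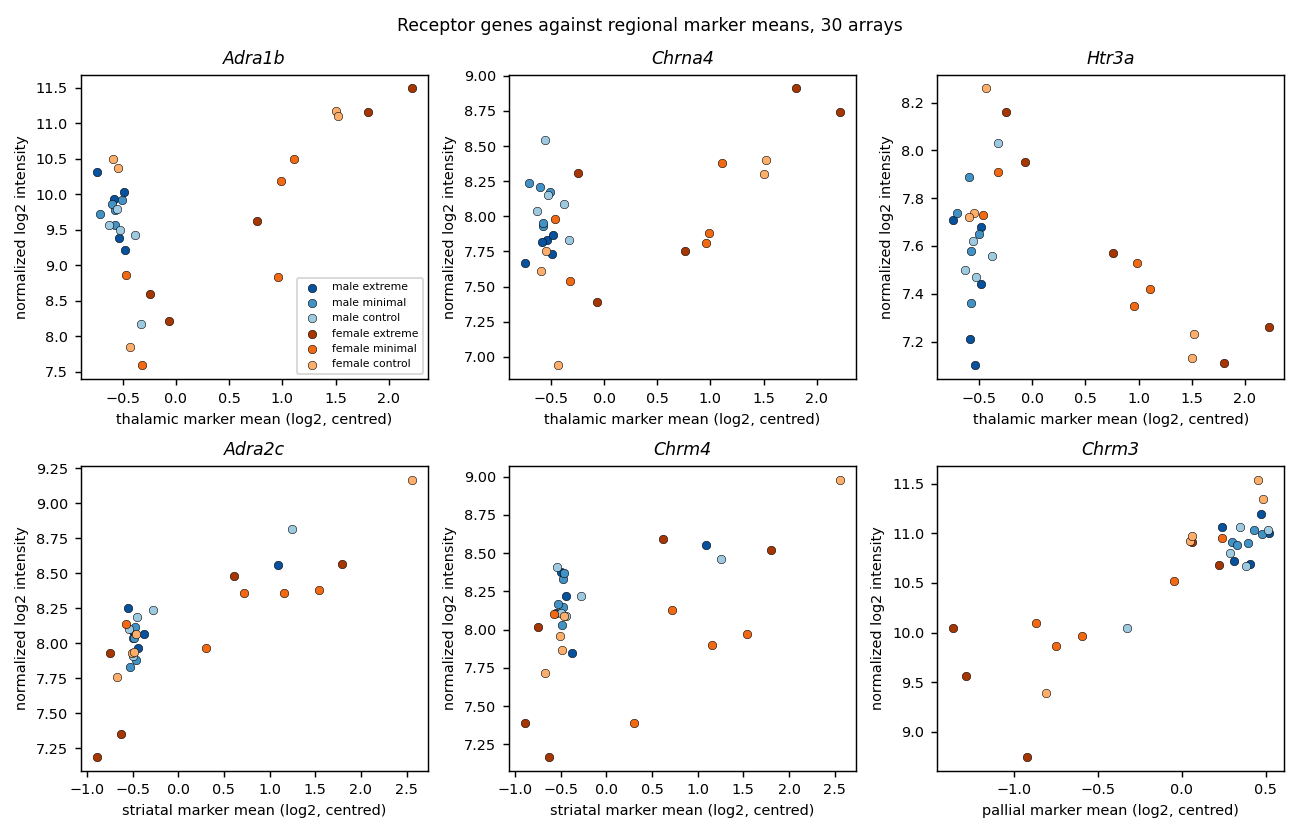
Normalized log2 intensity (vertical axes) of 6 receptor genes against a regional marker mean (horizontal axes, log2, centred over 30 arrays), 1 point per rat, coloured by group. Adra1b and Chrna4 are highest on the female arrays with the highest thalamic mean, Adra2c rises with the striatal mean in both sexes, and Chrm3 is lowest where the pallial mean is below 0. The males lie within a narrow span of the thalamic mean, and on the striatal axis male extreme responder 2, at 1.09, and male control 3, at 1.25, lie apart from the other males. On the pallial axis male control 3, at -0.33, lies apart from the other males.

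The bases just before the transcription start are shown for 5 members that moved with regional tissue, 3 with the thalamic mean, 1 with the striatal and 1 with the pallial mean, so that their promoters can be set side by side. They are the 250 bases before the start in RefSeq on GRCr8, 5′ to 3′ on the gene's strand, which held an entry for 31 of the 40 members. The windows are Adra1b at chr10:28814348-28814597 on the minus strand, Htr7 at chr1:243173049-243173298 on the minus strand, Chrna4 at chr3:188534527-188534776 on the minus strand, Adra2c at chr14:79697477-79697726 on the minus strand and Chrm3 at chr17:64696677-64696926 on the plus strand. Capitals mark matches on either strand to the GC box GGGCGG, the CCAAT box CCAAT, the cyclic AMP element half-site TGACG and the TATA box TATAAA.
Adra1b: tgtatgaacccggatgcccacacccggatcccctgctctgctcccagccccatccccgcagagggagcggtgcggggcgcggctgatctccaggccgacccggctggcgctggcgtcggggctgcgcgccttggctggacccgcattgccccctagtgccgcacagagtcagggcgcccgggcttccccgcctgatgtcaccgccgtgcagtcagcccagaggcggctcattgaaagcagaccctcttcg
Htr7: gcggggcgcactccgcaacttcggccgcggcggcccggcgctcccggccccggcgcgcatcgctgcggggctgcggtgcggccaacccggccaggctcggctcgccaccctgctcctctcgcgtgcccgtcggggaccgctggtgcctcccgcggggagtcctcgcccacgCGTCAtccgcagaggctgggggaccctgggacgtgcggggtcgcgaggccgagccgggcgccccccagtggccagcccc
Chrna4: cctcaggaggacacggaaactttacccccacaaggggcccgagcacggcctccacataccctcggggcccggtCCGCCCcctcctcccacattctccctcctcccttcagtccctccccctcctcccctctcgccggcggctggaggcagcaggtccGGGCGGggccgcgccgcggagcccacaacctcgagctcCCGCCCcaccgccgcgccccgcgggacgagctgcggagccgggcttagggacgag
Adra2c: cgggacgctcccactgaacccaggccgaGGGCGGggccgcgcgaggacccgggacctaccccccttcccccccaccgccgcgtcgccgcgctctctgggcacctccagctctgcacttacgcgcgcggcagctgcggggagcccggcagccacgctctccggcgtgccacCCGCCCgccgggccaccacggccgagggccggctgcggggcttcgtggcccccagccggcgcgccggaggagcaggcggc
Chrm3: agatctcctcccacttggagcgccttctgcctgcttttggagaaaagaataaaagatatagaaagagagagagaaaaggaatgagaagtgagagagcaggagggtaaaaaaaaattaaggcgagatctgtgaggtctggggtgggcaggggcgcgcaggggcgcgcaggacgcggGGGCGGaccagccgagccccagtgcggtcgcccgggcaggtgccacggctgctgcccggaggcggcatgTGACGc

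The 3 members that rose with the thalamic mean shared none of the 4 motifs. Chrna4 held 3 GC boxes, Htr7 held 1 cyclic AMP half-site and Adra1b held none of the motifs, while Adra2c held 2 GC boxes and Chrm3 held 1 GC box and 1 cyclic AMP half-site. Their content of G and C was 70.8% for Adra1b, 80.8% for Htr7, 74.4% for Chrna4, 80.4% for Adra2c and 60% for Chrm3. Of all 27457 rat promoters of this length 32.4% held a GC box, 34.3% a CCAAT box, 19% the half-site and 13.1% a TATA box. Of the 31 members with a promoter, 16 held a GC box, 6 a CCAAT box, 6 the half-site and 1 a TATA box. These are letter matches only and no measurement of binding.

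Genes that supply the transmitters or carry the receptor signal were counted from lists of 85 measured genes. In males none was called in exposed minus control, extreme minus control, minimal minus control or extreme minus minimal. In female exposed minus control 8 were called (9.41%, beside 6.87% of all probes), 1 higher and 7 lower. The lower ones were the monoamine oxidase Maob at -0.72 ± 0.15 (limma, adjusted p = 0.00382), the G protein subunits Gnb5 at -0.60 ± 0.15 and Gnao1 at -0.33 ± 0.10, the protein kinase C Prkcb at -0.58 ± 0.17, the G protein regulator Rgs14 at -0.32 ± 0.09, the cyclic AMP exchange factor Rapgef4 at -0.66 ± 0.20 and the kinase anchor Akap5 at -0.45 ± 0.14. Rapgef3, the other cyclic AMP exchange factor, was higher at 0.51 ± 0.13. Female extreme minus control, which shares its controls with that comparison, called 8 (9.41%, beside 6.53%), among them the phosphodiesterase Pde4b at -0.47 ± 0.11 and the G protein subunit Gnb2 at 0.31 ± 0.10. Female minimal minus control called Rapgef3 alone, at 0.73 ± 0.15 (1.18%, beside 1.98%), and female extreme minus minimal called none (0.128% of probes). In female exposed minus control 2 of 7 pallial excitatory markers (median -0.49), 2 of 9 astrocyte markers and 1 of 7 choroid plexus markers were called lower as well, and the oligodendrocyte markers had a median of 0.56 with none called. The part of these cell types in the signalling genes' differences was not tested.

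In male minus female 20 of these 85 genes were higher and 7 lower (31.8%, beside 19.2% of all probes). Tph2, the neuronal serotonin-synthesizing enzyme, was higher by 0.16 ± 0.05 (limma, adjusted p = 0.0399) and Maob by 0.44 ± 0.10 (adjusted p = 0.00257). The phospholipase C arm, which Chrm1 and Chrm3 feed, had 5 higher of 11, namely Plcb1 at 0.47, Itpr1 at 0.49, Prkcb at 0.34, Dgkz at 0.86 and Kcnq5 at 0.61, and Dgka lower at -0.29. Among the 7 lower genes were Rgs3 at -1.52 ± 0.33, Rgs8 at -0.66 ± 0.16, Rgs16 at -0.48 ± 0.15, Adcy8 at -0.67 ± 0.18 and Gnal, the olfactory-type G protein of the striatum, at -0.71 ± 0.22. Rgs16 is also one of the thalamic markers, and Rgs9 and Pde10a are also striatal markers. The effect of exposure differed between the sexes for 4 of the 85 genes (4.71%, beside 4.49% of all probes). All 4 had a higher value in male minus female: Maob at 0.79, Rgs14 at 0.50, Prkcb at 0.82 and Rapgef4 at 1.03. The part of regional tissue in these differences of the signalling genes was not tested.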

How the data were processed

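Amygdala RNA of 30 rats was measured on 30 arrays, 5 in each of 6 groups taken from the labels. The values are log2 intensities of 22523 probes as deposited by the authors. The columns share 1 median, as after quantile normalization, and neither the sources used here nor the table itself name the software, background correction or normalization. None of the 60 columns of a deposited scanner table could be tied to a sample by name, so the planned fit on scanner values was made on the log2 values. Of the probes 13793 carried 1 symbol and 8730 none, and all 40 receptor symbols matched RefSeq unchanged. A probe was tested when it exceeded the array median on 5 or more arrays, which left 13308.

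Group means were fitted with limma 3.58.1 in R 4.3.3 (24 residual degrees of freedom), with Benjamini-Hochberg adjustment over all tested probes and a threshold of 0.05 in 12 comparisons. The fit was tested on simulated data. The members, the lists and the markers were chosen with earlier results of these data known, and the slopes on marker means were added after the data were seen. Named genes were those called in any comparison and the 8 with the smallest p within a sex, and others are named as chosen after their values were seen. A marker mean is the average of the list's log2 values, each centred over the arrays. Same-numbered female extreme and minimal responders deviated together over all probes (correlations 0.146 to 0.687, mean 0.421), and no other pair of groups did so throughout. The labels name separate rats. The main fit treated all rats as independent, so its SE in female comparisons may be too small or too large where these deviations are shared. With 5 arrays a group, the number of arrays limits the precision.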

Additional observations from a re-analysis of the deposited data

Results flagged for a closer look

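Among 138 combinations of a member and a group of 5 arrays, Dixon's test at its 95% critical value set 11 values apart from the other 4 of their group, in 7 genes. Chance alone marks about 1 in 20 such groups. Adra1b was low in male control 3 at 8.17 and in female control 3 at 7.85. On female control 3, Adra2c was high at 9.17 and Chrm3 low at 9.39. On male control 3, Htr3a was high at 8.03 and Htr5b at 7.19. Chrna5 was high in male extreme 2 at 8.37 and in male control 5 at 8.11. Chrna7 was high in male extreme 4 at 7.18 and low in female extreme 1 at 6.85. Htr5b was high in female extreme 5 at 8.52. Female control 3 and male control 3, which hold 6 of these values, also hold the highest striatal marker means of their groups, 2.56 and 1.25, and the part of that in these values was not tested.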

How the results depend on the processing

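Exposed minus control in males and over both sexes, extreme minus minimal in each sex and its sex difference, and minimal minus control in each sex kept 0 called members under every alternative run. In female exposed minus control 1 member, Chrnd, was called with robust variances and an intensity trend, with normexp correction and in the blocked fit. The replicate block called 1 member there (limma, Chrnd, adjusted p = 0.0498) and changed no other count of calls by over 1.5 times. That block spans all 6 groups, although same-numbered female controls deviated the other way on average. Their mean correlation was -0.322 with female extreme and -0.172 with female minimal responders. It therefore does not model a link between extreme and minimal females alone. Array weights called 1 member, Chrnb1, in male extreme minus control. In male minus female 1 member, Htr7, was called with the 60th percentile filter, which removed Chrm1 before the test. In that comparison 0 members were called with the 3 regional means, with the choroid plexus mean or with the myelin mean as covariates. These means differ between the sexes, so the covariate fits cannot tell sex from tissue content. Htr7 was -0.17 with the regional means (adjusted p = 0.377), -0.12 with the choroid plexus mean (0.839) and -0.33 with the myelin mean (0.272), the last nearly as large as without it. Chrm1 turned to -0.057 with the regional means, against 0.19 without them, and was 0.016 with the choroid plexus mean and 0.0050 with the myelin mean. With array state (the lower or higher reading of 1 ribosomal protein probe, 14 and 16 arrays) as a covariate Chrm1 had 0.16 and an adjusted p of 0.0612. Leaving out 1 array at a time, called members ranged from 0 to 1 in female exposed minus control, from 0 to 1 in female extreme minus control, from 0 to 4 in male minus female and from 0 to 1 in the sex difference of exposure. The additional calls in male minus female were Chrm3, Htr5b, Chrnb2 and Chrna3.

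For the slopes, thalamic calls were 0 in males alone (0.00751% of probes) and 3 without the 2 farthest arrays (9.12%). Striatal calls were 3 in females alone (1.47% of probes), 3 in males alone (1.93%) and 1 without the 2 farthest arrays (0.496%). Pallial calls were 1 in males alone (0.586% of probes) and 1 with the 60th percentile filter. That filter removed Chrm1 and Chrne before the test. Leaving out 1 array at a time gave 2 to 7 striatal, 2 to 5 pallial and 6 to 7 thalamic calls. Other probes of a gene could not be tried, since each member has 1 probe. Most members lie near the array median, where signal over background limits what a difference can show. The cause of these changes was not tested.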
